A study of Mus musculus with 3 samples.

Results

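The genes described here are 8 genes of the B cell follicle and of lymphotoxin signalling, *Cxcl13*, *Cxcr5*, *Cr2*, *Fcer2a*, *Lta*, *Ltb*, *Siglecg* and *Fcmr*, out of 54838 genes listed in the spatial transcriptomes of mouse thymus. They were taken by symbol, and all 8 were found. They were selected on their measured CPM and positions in these same sections, so their levels, their clumping and their distance to the medulla are given as descriptions with no test. The question was whether they lay together in follicle-like areas in each section.

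The data came from 10 µm cryosections of whole thymus from 3 female C57BL/6 mice that had been perfused with PBS. KO1308 (21 weeks old) and KO1134 (17 weeks old) carried a germline *Trp53*-/- knockout, so that every cell type of the mouse lacked the gene, and WT1101 (17 weeks old, called WT here) was *Trp53*+/+. The study's methods give different permeabilisation of the WT and the KO sections, and its supplementary sheet gives other ages, and neither can be told apart from genotype here. Each mouse gave 1 section, so the comparison rests on 2 KO sections and 1 WT section, and no p-values are given. RNA was captured on spots 4.8 µm apart, and the values below are sums over square bins 27 µm wide, which hold RNA of several cells.

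In secondary lymphoid organs, stromal cells of the follicle, including follicular dendritic cells, secrete the chemokine CXCL13, which draws in B cells through the receptor CXCR5. B cells display lymphotoxin, a complex of the LTA and LTB proteins, on their surface, and lymphotoxin acts through its receptor LTBR on the stroma and keeps up CXCL13 production and the follicular dendritic cells themselves. *Cr2* encodes complement receptors of B cells and follicular dendritic cells, *Fcer2a* encodes CD23 (the low affinity IgE receptor of mature follicular B cells), *Siglecg* encodes an inhibitory lectin of B cells, and *Fcmr* encodes an Fc receptor for IgM. The normal thymus holds few B cells, which lie mainly in the medulla, and it is organised in a cortex and a medulla and not in follicles. Developing and mature thymocytes also transcribe *Ltb* and *Lta*, and thymocyte lymphotoxin acts on medullary epithelium through the same receptor.

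In the annotation of build GRCm38, *Lta* (ENSMUSG00000024402, chr17:35203165-35205351) and *Ltb* (ENSMUSG00000024399, chr17:35194439-35196320) lie near each other on opposite strands. *Cxcl13* (ENSMUSG00000023078) lies at chr5:95956951-95961068 and *Cr2* (ENSMUSG00000026616) at chr1:195136811-195176716. *Cxcr5* (ENSMUSG00000047880) lies at chr9:44511787-44561877 and *Fcer2a* (ENSMUSG00000005540) at chr8:3681737-3694175. *Siglecg* (ENSMUSG00000030468) lies at chr7:43408204-43418358 and *Fcmr* (ENSMUSG00000042474) at chr1:130865669-130880791. None of the 8 was summed from more than 1 identifier.

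The upstream sequences of *Cxcl13* and *Ltb* are shown because *Cxcl13* had the highest and *Ltb* the lowest clumping of the members in KO1308, although both are known targets of NF-kB signalling. RefSeq sequences of the same build were matched for 7 of the 8 genes. The *Cxcl13* stretch is chr5:95956689-95956938 and the *Ltb* stretch is chr17:35194257-35194438, both on the plus strand and both before the annotated start of the gene. Capitals mark the only match to the NF-kB core (GGGA and TTCC with 2 bases of any kind between them), which was found on the minus strand of *Ltb*.
Cxcl13: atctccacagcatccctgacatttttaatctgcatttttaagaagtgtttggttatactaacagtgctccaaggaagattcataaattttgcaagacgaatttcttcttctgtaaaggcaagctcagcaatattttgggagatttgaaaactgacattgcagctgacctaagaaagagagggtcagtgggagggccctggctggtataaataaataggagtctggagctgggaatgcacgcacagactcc
Ltb: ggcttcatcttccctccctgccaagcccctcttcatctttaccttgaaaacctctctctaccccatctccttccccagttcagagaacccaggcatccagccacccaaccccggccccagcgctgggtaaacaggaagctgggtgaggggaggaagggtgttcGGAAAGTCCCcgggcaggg
The core was searched on both strands in the 250 bases before each RefSeq start, where 1.21% of all 32851 starts held it, and the octamer ATGCAAAT of B cell promoters was searched in the same way and was held by 1.60%. No start of the other matched members held either motif, which says only that these letters are not in these windows.

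The sections held 17585464 (KO1308), 31120116 (KO1134) and 40575395 (WT) UMIs in 16140, 12009 and 27104 tissue bins, or 1090, 2591 and 1497 UMIs per bin. *Trp53* stood at 25.1, 17.0 and 79.9 CPM (UMIs of the gene per 1000000 UMIs of all genes), with 442, 529 and 3243 UMIs. Both KO sections were below WT, and *Trp53* UMIs were still present in them. A list of 10 B cell identity genes that holds no member (*Cd79a*, *Ms4a1*, *Pax5* and others) summed to 305 CPM in KO1308, 411 CPM in KO1134 and 95.2 CPM in WT. Because each bin mixes cells, fewer cells of a type and less RNA per cell cannot be told apart in any value below.

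All 8 members had higher CPM in both KO sections than in WT, by 1.35-fold to 35.1-fold. In KO1308, 7 of the 8 were at least 2-fold above WT, where 15.4% of the genes with at least 100 UMIs in either section were, and the median ratio of the 8 was 3.65 against 1.06 for all those genes. In KO1134, 6 of the 8 were, where 13.3% of genes were, with a median of 4.08 against 0.975. The same 6 genes were at least 2-fold higher in both KO sections, where 7.33% of genes were. None of the 8 was at least 2-fold below WT, where 4.38% of genes were in KO1308, 7.93% in KO1134 and 2.33% in both. These counts describe genes that were picked for being high, and the B cell list was itself 3.21-fold and 4.32-fold above WT.

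**Figure D1:**
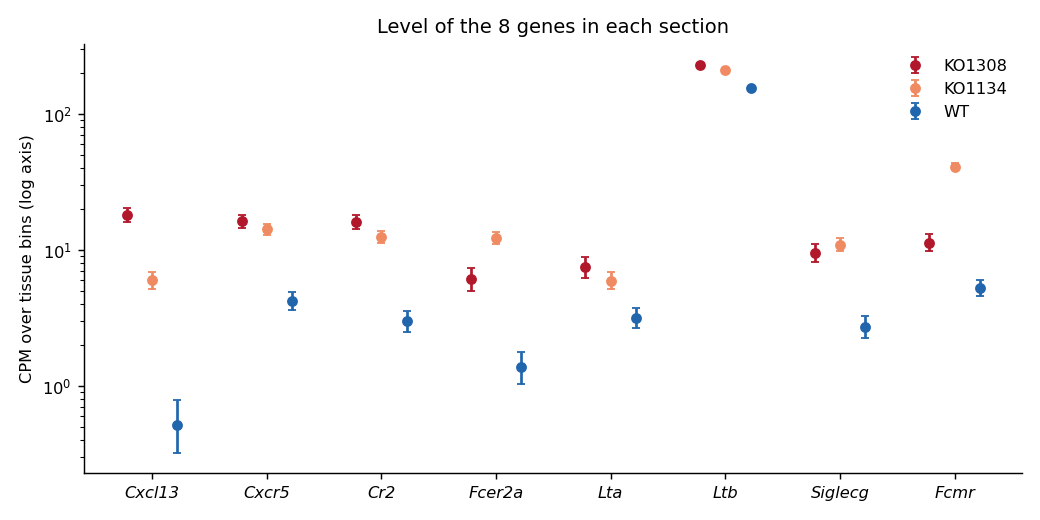
Level of each of the 8 genes in each section in CPM over tissue bins, on a log axis, with exact Poisson 95% intervals as bars (counting error only, 1 section per point). *Cxcl13* spans the widest range, from 0.518 CPM in WT to 18.1 CPM in KO1308, and *Ltb* the narrowest, from 155 to 228 CPM.

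*Cxcl13*, the chemokine of the follicle stroma, stood at 18.1 CPM in KO1308 (95% interval 16.2 to 20.2, 319 UMIs), 6.01 CPM in KO1134 (5.18 to 6.94, 187 UMIs) and 0.518 CPM in WT (0.320 to 0.791, 21 UMIs). The intervals of the 3 sections did not overlap, and KO1308 was highest. The ratios to WT were 35.1 (22.5 to 57.4) and 11.6 (7.38 to 19.2), and KO1308 was 3.02-fold (2.51 to 3.64) above KO1134. It was the only member above WT by more than 2-fold in KO1308 when counted per UMI of the B cell list, at 10.9-fold, and it was 2.69-fold above WT on that scale in KO1134.

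*Cxcr5*, the receptor for CXCL13 on B cells and follicular helper T cells, did not follow its ligand between the KO sections. It stood at 16.3 CPM in KO1308 (286 UMIs), 14.3 CPM in KO1134 (444 UMIs) and 4.24 CPM in WT (172 UMIs). The ratios to WT were 3.84 (3.16 to 4.66) and 3.37 (2.82 to 4.04), and the ratio between the KO sections of 1.14 had an interval of 0.979 to 1.33. Per B cell UMI *Cxcr5* was at 1.20 times WT in KO1308 and at 0.780 times WT in KO1134.

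*Cr2*, the complement receptor gene, stood at 16.0 CPM in KO1308 (281 UMIs), 12.5 CPM in KO1134 (389 UMIs) and 3.01 CPM in WT (122 UMIs), which is 5.31-fold (4.28 to 6.63) and 4.16-fold (3.38 to 5.14) above WT. *Fcer2a*, the CD23 gene, had the reverse order of the KO sections, with 6.14 CPM in KO1308 (95% interval 5.04 to 7.41), 12.3 CPM in KO1134 (384 UMIs) and 1.38 CPM in WT (56 UMIs). Its ratios to WT were 4.45 (3.19 to 6.26) and 8.94 (6.74 to 12.1). Per B cell UMI *Fcer2a* stood at 1.39 and 2.07 times WT, and *Cr2* at 1.66 and 0.963 times WT.

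*Fcmr* differed most between the KO sections in the direction opposite to *Cxcl13*. Its level was 11.4 CPM in KO1308 (200 UMIs), 41.1 CPM in KO1134 (1279 UMIs) and 5.25 CPM in WT (213 UMIs), so KO1308 held 0.277 times (0.237 to 0.321) the level of KO1134. The ratios to WT were 2.17 (1.78 to 2.64) and 7.83 (6.77 to 9.09). *Siglecg* stood at 9.50 CPM in KO1308 (167 UMIs), 10.96 CPM in KO1134 (341 UMIs) and 2.74 CPM in WT (111 UMIs), with ratios to WT of 3.47 (2.71 to 4.45) and 4.01 (3.22 to 5.01). Its level per B cell UMI was 1.08 and 0.928 times WT, and the intervals of both held 1.

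The lymphotoxin genes differed least between the sections. *Lta* stood at 7.45 CPM in KO1308 (131 UMIs), 5.98 CPM in KO1134 (186 UMIs) and 3.18 CPM in WT (129 UMIs), with ratios to WT of 2.34 (1.82 to 3.01) and 1.88 (1.49 to 2.37). *Ltb* was the most abundant member in every section by UMIs, with 228 CPM in KO1308 (4010 UMIs), 210 CPM in KO1134 (6528 UMIs) and 155 CPM in WT (6294 UMIs). Its ratios were 1.47 (1.41 to 1.53) and 1.35 (1.31 to 1.40). The direction of both turned when the UMIs of the B cell list were the denominator, to 0.731 and 0.436 times WT for *Lta* and to 0.458 and 0.313 times WT for *Ltb*.

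The other genes of the lymphotoxin pathway are counted beside the shares of all genes at least 2-fold above WT, which were 15.4% in KO1308, 13.3% in KO1134 and 7.33% in both. Of 6 ligand genes of the family, the member *Lta* among them, 3 were at least 2-fold above WT in each KO section and 2 in both, the inflammatory cytokine gene *Tnf* (2.04-fold and 2.32-fold) and the BAFF gene *Tnfsf13b* (3.28-fold and 2.51-fold), a survival factor of B cells. *Tnfsf14*, which encodes the ligand LIGHT that shares LTBR with lymphotoxin, was at 0.923 and 1.25 times WT. Of 6 receptor genes, 4 were at least 2-fold above WT in KO1308, *Tnfrsf14* with only 40 UMIs, and 2 in KO1134, and these 2 were *Tnfrsf11a* (RANK; 3.26-fold and 2.59-fold) and the BAFF receptor *Tnfrsf13c* (11.1-fold and 10.3-fold), which is also a gene of the B cell list. *Ltbr* itself was at 1.70 times WT (1.55 to 1.86) and 1.56 times WT (1.44 to 1.69).

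In the noncanonical NF-kB pathway below LTBR, 1 of 7 genes passed 2-fold in both KO sections, *Relb*, which encodes the transcription factor of that pathway (2.80-fold and 2.37-fold), while its partner *Nfkb2* was at 1.12 and 1.56 times WT. Of 8 known stromal targets, 5 were at least 2-fold higher in both KO sections, *Cxcl13*, itself a member chosen from these values, and 4 others. These were the T zone chemokines *Ccl19* (3.51-fold and 5.51-fold) and *Ccl21a* (3.42-fold and 5.20-fold), the addressin *Madcam1* (7.65-fold and 3.36-fold, from 19 WT UMIs) and *Glycam1*, a mucin of high endothelial venules (66.3-fold and 600-fold, from 8 WT UMIs). In KO1134, 2371 *Glycam1* UMIs lay in the largest area rich in B cell genes, described below, and 1150 lay outside such areas. Whether that area belongs to the thymus was not tested. The adhesion genes *Icam1* (1.89-fold and 1.88-fold) and *Vcam1* (1.15-fold and 1.21-fold) were below 2-fold, and *Chst4* had 1, 1 and 5 UMIs.

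The positions of the UMIs also separated the members. Areas in which B cell genes outweighed thymocyte and cortical genes were defined without any member, as bins whose surrounding 7 × 7 bins held more UMIs of *Cd79a*, *Cd79b* and *Ms4a1* than of 6 thymus genes, and are called B areas. KO1308 had 449 such bins (2.78% of tissue), 345 of them in 1 area of 0.252 mm2 (594 by 621 µm). A further area there had 30 bins, 0 *Cxcl13* and 0 *Cr2* UMIs. KO1134 had 1959 (16.3%), 1784 of them in 1 area of 1.30 mm2 (1944 by 1080 µm) and 70, 50 and 41 in 3 smaller areas. WT had none by this rule. The rule also depends on the 6 thymus genes, which summed to 1425 CPM in KO1308, 645 CPM in KO1134 and 2081 CPM in WT. The KO1134 areas of 50 and 41 bins passed with 277 and 242 CPM of the 3 B cell genes. In the B-rich patches of WT described below, these genes stood at 218 CPM beside 1256 CPM of thymus genes.

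**Figure D2:**
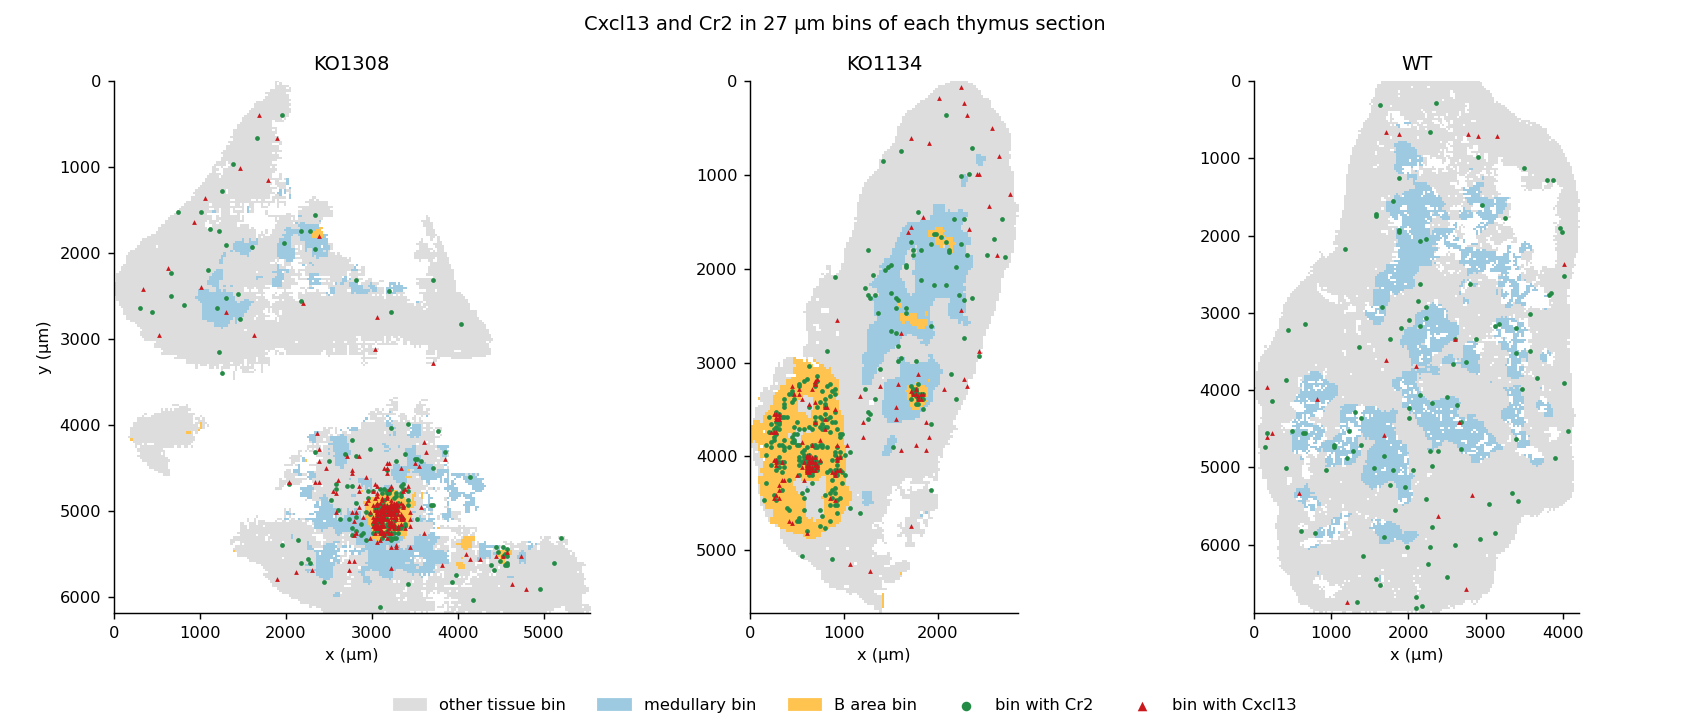
Maps of the 3 sections in 27 µm bins with both axes in µm, showing other tissue (grey), medullary bins (blue), B area bins (yellow) and bins that held *Cxcl13* (red triangles) or *Cr2* UMIs (green circles). In KO1308 the 2 genes crowd into 1 area that is partly surrounded by medullary bins. In KO1134 they crowd within the large area at the edge of the section and in a small area in the medulla. In WT they are scattered.

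In KO1308, *Cxcl13* was the gene with the highest ratio of the largest B area to the tissue outside B areas among the 13547 genes with at least 100 UMIs in that section, and *Cr2* was the next. *Cxcl13* stood at 255 CPM in the area (222 UMIs) and was 45.5-fold (35.5 to 58.6) above the tissue outside, where 93 UMIs lay. *Cr2* stood at 177 CPM in the area (154 UMIs) and was 24.7-fold above the outside (119 UMIs). The area held 69.6% of all *Cxcl13* UMIs and 54.8% of all *Cr2* UMIs of the section, with 4.96% of all its UMIs.

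The other members were less concentrated there in KO1308. *Fcmr* was 9.98-fold, *Fcer2a* 8.61-fold, *Siglecg* 6.56-fold, *Cxcr5* 4.68-fold and *Lta* 3.74-fold above the outside, and *Ltb* was 1.39-fold above it. Thus 7 of the 8 passed 2-fold, where 4.61% of genes did. Per UMI of the B cell list, *Cxcl13* was still 10.5-fold and *Cr2* 5.67-fold above the outside, *Fcmr* was 2.30-fold above it, and *Ltb* was at 0.321 times the outside. These values depend on the list, whose genes differed. *Fcrla* was 1.78-fold, *Cd72* 2.06-fold and *Blk* 3.79-fold above the outside, and its other genes ran from 5.17-fold (*Cd79b*) to 7.93-fold (*Pax5*).

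In KO1134 the order was different. *Fcmr* was 14.9-fold, *Fcer2a* 14.1-fold, *Cr2* 13.9-fold and *Cxcl13* 12.1-fold above the tissue outside B areas, which are ranks 7, 8, 9 and 11 of 14497 genes. *Siglecg* was 6.68-fold, *Cxcr5* 5.01-fold, *Ltb* 3.88-fold and *Lta* 2.82-fold above it, so that 8 of 8 passed 2-fold, where 3.86% of genes did. The area held 68.4% of *Cxcl13*, 70.2% of *Cr2* and 75.6% of *Fcmr* UMIs, with 18.1% of all UMIs of the section. Per B cell UMI the 4 leading members were 2.30-fold to 2.83-fold above the outside and *Ltb* was at 0.737 times it. As a mean over its 1784 bins, *Cxcl13* stood at 22.7 CPM (128 UMIs), against 255 CPM over the 345 bins of the KO1308 area. Areas of such different size are not alike in scale. In the larger clump of each section, defined below, *Cxcl13* stood at 215 CPM in KO1134 and 341 CPM in KO1308. Over the whole areas, *Fcmr* stood at 171 CPM in KO1134 against 75.7 CPM in KO1308, and *Ltb* at 527 CPM against 311 CPM.

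The B areas of KO1308 and KO1134 also lay in different surroundings. Around the KO1308 area, 36.7% of the tissue within 4 bins was medullary, which means that its surrounding 5 × 5 bins held at least 2 times the section's share of 8 medullary epithelial genes, and 1.16% of the positions were off the tissue. Over the whole section 14.4% of tissue bins were medullary by the full list. The share in the surround was 10.9% with the T zone chemokine *Ccl21a* taken out of the list, so it rested largely on this gene. The epithelial keratin genes gave direct values: *Krt5* stood at 420 CPM in this surround against 305 CPM over the section outside B areas and *Krt14* at 136 against 54.7 CPM, while *Aire*, the transcription factor gene of mature medullary epithelium, stood at 35.3 against 38.3 CPM (19 UMIs in the surround). *Krt5* also stood at 177 CPM (154 UMIs) inside the area.

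Around the largest KO1134 area, 0.132% of the tissue was medullary and 21.1% of the positions were off the tissue. *Krt5* stood at 47.5 CPM in the surround against 129 CPM over the section outside B areas and at 10.1 CPM inside. *Marco* and *Lyve1*, genes of lymph node sinus macrophages and lymphatic endothelium, had 335 and 1115 UMIs inside this area, and *Glycam1* had 2371. In the KO1308 area *Marco* had 0 and *Lyve1* had 4 UMIs. The 7 sinus genes together stood at 325 CPM inside the KO1134 area against 40.9 CPM outside, and at 16.1 CPM inside the KO1308 area against 16.2 CPM outside. The 6 thymus genes, in contrast, were nearer the section level around the KO1134 area, at 643 against 730 CPM outside B areas. Around the KO1308 area they stood at 533 against 1496 CPM. Within 4 bins, 79.2% of the tissue was classed as thymus, in 7 × 7 windows, around the KO1134 area. Around the KO1308 area 7.33% was. This share was 30.7% to 67.5% around the 3 smaller KO1134 areas, where 81.5% to 99.4% was medullary. Whether the KO1134 area is part of the thymus or of an adjoining lymph node was not tested.

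*Cxcl13* and *Cr2* were layered within the KO1308 area. *Cxcl13* stood at 392 CPM in bins more than 4 bins from its border, 245 CPM at 2 to 4 bins and 92.8 CPM within 2 bins (54 µm) of the border, and at 37.5 CPM in the first 2 bins outside. *Cr2* stood at 276, 135 and 92.8 CPM in the same zones and at 45.02 CPM outside. Both thus had their highest level in the core. *Gcsam*, a gene of germinal centre B cells, ran the same way with 80.1, 22.6 and 0 CPM, whereas 8 T zone genes together had 1125, 1779 and 1986 CPM, highest at the border. *Ltb* was also lowest in the core, at 291, 308 and 338 CPM, and stood at 371 CPM just outside.

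In the KO1134 area, *Cxcl13* stood at 38.9 CPM more than 4 bins inside the border, 18.4 CPM at 2 to 4 bins and 4.0 CPM within 2 bins, and *Cr2* at 75.6, 37.3 and 22.03 CPM. *Fcmr* stood at 231, 163 and 93.5 CPM. These 3 members were again highest in the core. The T zone genes had 2532, 2400 and 2218 CPM and were not lowest there, and *Glycam1* was 652 CPM in the core against 298 and 232 CPM further out.

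**Figure D3:**
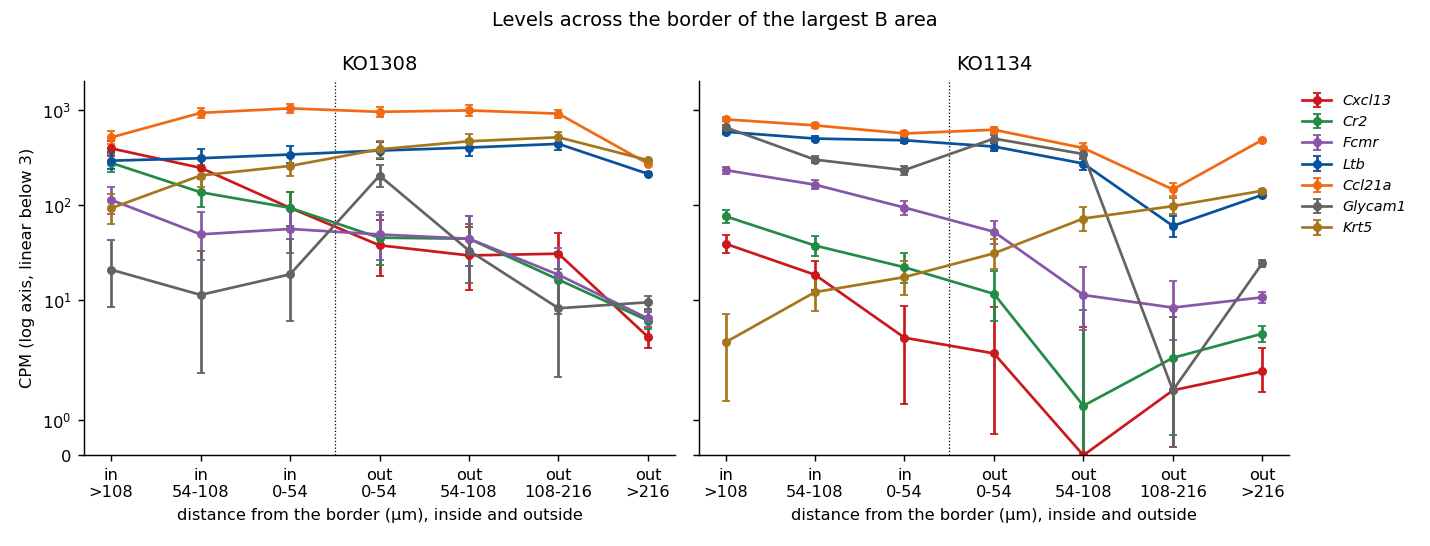
Level of *Cxcl13*, *Cr2*, *Fcmr*, *Ltb*, *Ccl21a*, *Glycam1* and *Krt5* in CPM (log axis, linear below 3 CPM, with exact Poisson 95% intervals as bars) by distance from the border of the largest B area (µm, inside to the left and outside to the right), for KO1308 and KO1134. *Cxcl13* is at 392 CPM in the core and 92.8 CPM at the border in KO1308 and at 38.9 and 4.0 CPM in KO1134.

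Clumping was measured as a pair ratio, the number of pairs of UMIs at a given distance over the number expected if each gene had followed the total UMIs of the bins, so that 1 means no clumping beyond that of all RNA. At up to 54 µm between different bins, the ratio of *Cxcl13* with itself was 32.3 in KO1308 (rank 13 of 13547 genes) and 25.1 in KO1134 (rank 12 of 14497). The ratio of *Cr2* was 19.9 (rank 23) and 12.7 (rank 32). The median of all genes was 1.08 and 1.10, and 0.517% and 0.290% of genes reached 10, as these 2 members did in both KO sections.

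The remaining members were clumped at lower ratios. In KO1308 *Fcmr* had 6.45, *Siglecg* 4.55, *Fcer2a* 4.53, *Cxcr5* 2.17, *Lta* 1.48 and *Ltb* 1.15. In KO1134 *Fcer2a* had 6.29, *Fcmr* 6.15, *Siglecg* 3.45, *Cxcr5* 2.55, *Ltb* 2.47 and *Lta* 2.37. A ratio of at least 2 was reached by 6 of 8 members in KO1308, where 6.58% of genes reached it, and by 8 of 8 in KO1134, where 5.30% did.

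The clumps of *Cxcl13* reached farther in KO1308 than in KO1134. In KO1308 its ratio was 30.2 at 2 to 4 bins, 21.4 at 4 to 8 bins and 8.98 at 8 to 16 bins. In KO1134 it was 13.4, 4.02 and 2.95. *Cxcl13* with *Cr2* gave 26.1 in KO1308 (2214 pairs) and 18.4 in KO1134 (1503 pairs) at up to 54 µm. *Cxcl13* with its receptor *Cxcr5* gave 6.42 and 4.36, and *Cxcl13* with *Ltb* 2.42 and 2.76. The ratios of the chemokine with its receptor and with lymphotoxin were thus lower than that with *Cr2*. With the B areas left out, *Cxcl13* with *Cr2* gave 3.25 in KO1308 and 0.743 in KO1134, so that the excess in KO1134 rested on the B areas.

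*Cr2* lay near the B cell members as well, with 9.09 and 8.03 for *Fcer2a*, 10.5 and 7.87 for *Fcmr* and 6.83 and 6.07 for *Siglecg* in KO1308 and KO1134. *Cxcl13* with the B cell gene *Cd79a* gave 8.58 and 9.003, against 0.819 and 0.828 for the T cell receptor complex gene *Cd3e* and 0.738 and 0.723 for *Jchain*, the joining chain of secreted antibody. *Cd3e* does not stand for all T cell genes, since in the largest KO1134 B area *Cd3d* was 2.19-fold and *Cd3g* 1.23-fold above the outside and *Cd3e* was at 0.851 times. The sections differed in the ratio to the keratin gene *Krt14*, at 3.62 in KO1308 and 0.387 in KO1134. They also differed in that to *Gcsam*, at 16.9 and 1.97.

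In WT, 6 members had at least 100 UMIs and only *Fcmr* reached 2, at 2.66 from 32 pairs, where 3.27% of genes did. None of the 6 reached 10, where 0.319% of genes did. *Cr2* had 1.77 from 7 pairs, *Siglecg* 1.22, *Lta* 0.906, *Ltb* 0.878 and *Cxcr5* 0.764. *Cxcl13* (21 UMIs) had no pair at up to 54 µm, and *Cxcl13* with *Cr2* had 3 pairs (ratio 2.21). The members' UMIs did coincide within single bins in WT, where the same-gene ratio was 57.2 for *Fcmr* (64 pairs), 49.0 for *Cr2* (18 pairs) and 36.2 for *Siglecg* (11 pairs). Between neighbouring bins the ratios of *Cr2* and *Siglecg* were far lower and rested on at most 7 pairs, so no clump wider than a bin was detectable for them at this depth.

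**Figure D4:**
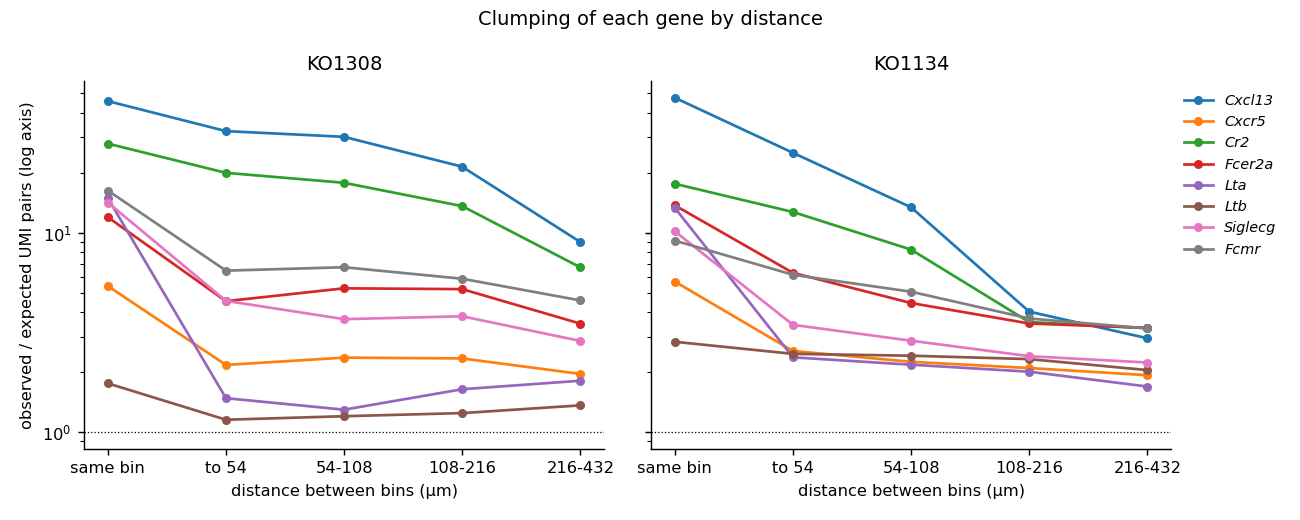
Same-gene pair ratio (observed over expected UMI pairs, log axis) of the 8 members by distance between the bins (same bin, then 4 bands in µm that reach 16 bins), in KO1308 and KO1134, with a dotted line at 1. *Cxcl13* and *Cr2* lie highest at up to 54 µm in both, and at 4 to 8 bins *Cxcl13* is still at 21.4 in KO1308 against 4.02 in KO1134.

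Within the largest B area alone, where B cell genes were already frequent, *Cxcl13* was still uneven. Its ratio with itself was 1.83 in KO1308 and 8.31 in KO1134, and with *Cr2* 1.86 and 5.88. So most of the clumping in KO1308 lay in the area as a whole, while in KO1134 *Cxcl13* and *Cr2* were gathered in a part of a larger area. Among 17 marker genes outside the member list that were paired with *Cxcl13*, *Gcsam* and *Mfge8* had the highest ratios in both areas. The ratio was 1.90 and 4.12 with *Gcsam*, 1.54 and 3.74 with *Mfge8* and 1.495 and 2.65 with *Clu*, the latter pair being genes of follicular dendritic cells, and 1.40 and 2.93 with *Cd79a*. Ratios below 1 were found with the T cell gene *Il7r* (0.776 and 0.669) and with *Ccr7*, the T zone homing receptor (0.908 and 0.779). With *Glycam1* it was 0.990 in KO1308 and 0.297 in KO1134.

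To count such places, windows of 5 × 5 bins were taken that held at least 5 UMIs and 200 CPM of *Cxcl13* and *Cr2* together, and groups of at least 25 adjoining bins are called clumps. KO1308 had 2 clumps, KO1134 had 2 and WT had none, with at most 4 UMIs of the pair in any WT window against 97 in KO1308 and 100 in KO1134. The larger clump of KO1308 had 226 bins (the area of a circle 458 µm wide) and lay to 94.3% in B areas, with 206 *Cxcl13* and 145 *Cr2* UMIs. The other had 31 bins with 3 *Cxcl13* and 11 *Cr2* UMIs and lay in no B area of at least 25 bins.

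In KO1134 the larger clump had 64 bins (244 µm wide) within the largest B area, with 56 *Cxcl13* and 80 *Cr2* UMIs. *Cxcl13* stood at 215 CPM and *Cr2* at 307 CPM in it, against 341 and 240 CPM in the larger clump of KO1308. The clump rule itself asked for 200 CPM of the pair. The other had 25 bins with 12 *Cxcl13* and 16 *Cr2* UMIs and lay in the B area of 70 bins, whose surround was 81.5% medullary. The clumps held 65.5% of *Cxcl13* and 55.5% of *Cr2* UMIs in KO1308, with 3.61% of all UMIs, and 36.4% and 24.7% in KO1134, with 1.05%.

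The smaller KO1134 area resembled neither the large one nor plain medulla. *Cxcl13* stood at 68.2 CPM (35.2 to 119, 12 UMIs) and *Cr2* at 119 CPM (73.9 to 182, 21 UMIs), both above the means over the large area. Clump against clump it was not higher. The clump of the smaller area held 179 CPM of *Cxcl13* and 239 CPM of *Cr2*, against 215 and 307 CPM in that of the large area. *Krt5* stood at 301 CPM, and *Glycam1*, *Marco* and *Lyve1* had 0 UMIs. The other B areas in the medulla of KO1134, of 50 and 41 bins, were surrounded by medulla to 99.4% and 88.6% and had 0 *Cxcl13* UMIs, with 8 and 0 *Cr2* UMIs. At their depth these 0 counts allow up to 26.2 and 40.6 CPM, above the 22.7 CPM of the large area, so a lower level there was not detectable.

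Other members and other genes were then compared between clumps and the rest of the B areas. The clump definition did not use these genes, but their UMIs come from the same bins. The members were also selected on their positions in these sections, so their values here are a description and no independent support. In KO1308, *Fcmr* was 2.79-fold (1.52 to 5.54), *Fcer2a* 2.38-fold (1.02 to 6.45) and *Cxcr5* 2.10-fold (1.12 to 4.25) higher in the clumps, while *Siglecg* was at 1.60 (0.826 to 3.30) and *Lta* at 1.26 times the rest (0.517 to 3.38), and *Ltb* was at 0.845 times (0.673 to 1.06), its interval holding 1. In KO1134 *Lta* was 3.78-fold (1.96 to 6.80), *Siglecg* 3.39-fold, *Fcmr* 3.16-fold, *Fcer2a* 2.82-fold and *Cxcr5* 1.94-fold higher and *Ltb* 1.17-fold. The B cell list was itself 1.76-fold and 2.91-fold higher in the clumps, and the 9 follicular dendritic cell genes were 2.41-fold and 2.63-fold higher. The T zone genes were at 0.92 and 0.51 times the rest.

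Follicular dendritic cell genes stood out beside *Cxcl13* in KO1308. The list, which holds no member, summed to 2776 CPM inside the largest B area against 467 CPM outside, and in KO1134 to 953 against 408 CPM. In the KO1308 area 8 of the 9 genes were at least 2-fold above the outside, led by *Mfge8* (10.1-fold), *Clu* (9.50-fold) and *Coch* (8.47-fold), and *Sox9* was at 0.475 times. In the KO1134 area 5 of the 9 were, led by *Bst1* (5.79-fold) and *Clu* (5.70-fold), whereas *Prnp* (0.649) and *Sox9* (0.137) were below the outside. *Enpp2* was at 0.949 times (0.879 to 1.023) and *Coch* at 0.635 times (0.2205 to 1.501, 6 UMIs inside). Both intervals held 1, so no direction was detectable for them. The 10 germinal centre genes stood at 331 CPM inside against 191 CPM outside in KO1308 and at 119 against 124 CPM in KO1134. In KO1308, 7 of the 10 were at least 2-fold above the outside, among them *Gcsam* (10.8-fold, 33 UMIs) and *Mybl1* (5.04-fold), and *Rgs13* (1.12), *Fas* (0.867) and *Bcl6* (0.860) were not. In KO1134 *Gcsam* was at 0.442 and *Mybl1* at 0.462 times the outside as means over the whole area. Within the B areas of KO1134, *Gcsam* was 6.93-fold higher in the clumps than in the rest, as given above.

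Outside the B areas most members lay towards the medulla, as the B cell list did, except *Cxcl13* in KO1134 and in WT, where no direction was detectable. In WT, *Fcer2a* was 10.5-fold (5.98 to 18.9; 34 medullary and 22 other UMIs) higher in medullary than in other bins, *Siglecg* 7.46-fold, *Fcmr* 4.89-fold, *Lta* 4.46-fold, *Cr2* 3.98-fold, *Cxcr5* 2.07-fold and *Ltb* 1.89-fold, and the B cell list was 2.501-fold higher. *Cxcl13* had 4 medullary and 17 other UMIs in WT, and its ratio of 1.60 had an interval of 0.393 to 4.92, so no direction was detectable at this depth. In WT 6 of the 8 passed 2-fold, where 11.1% of genes did. The median UMI of *Fcer2a* and of *Siglecg* lay in a medullary bin, while the median of all UMIs lay 232 µm from one.

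In KO1308 the medullary ratios ran from 1.55 for *Cxcr5* to 2.87 for *Siglecg*, with 2.38 for *Cxcl13* and 2.10 for the B cell list. The median of the 8 was 2.46 there against 4.22 in WT, but with the medulla set at 2 times the WT mean in every section it was 6.12 against 4.22, so the order of the sections turned with that choice. Of the 8, 5 passed 2-fold, where 6.75% of genes did. The KO1308 median fell to 1.85 with *Ccl21a* taken out of the medulla list and to 1.73 with the medulla set at 3 times the section mean. In KO1134 *Lta* was 4.97-fold and *Ltb* 3.36-fold higher in medullary bins, above the B cell list at 1.59-fold, and *Cxcl13* was at 0.861 times (0.348 to 1.87). In that section 6 of the 8 passed 2-fold, where 9.35% of genes did. The median *Cxcl13* UMI outside B areas lay 60.4 µm from a medullary bin in KO1308 and 242 µm in KO1134, against 223 and 171 µm for all UMIs.

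**Figure D5:**
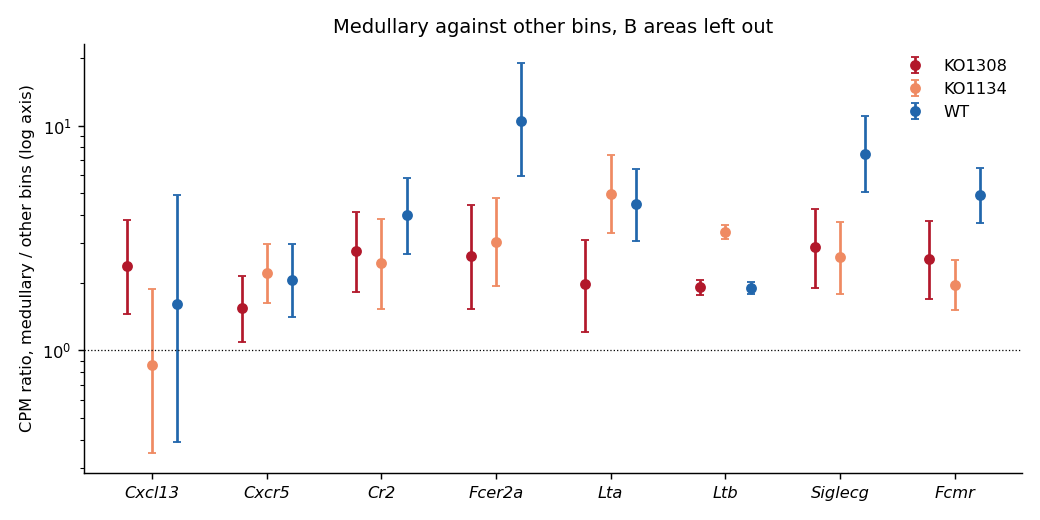
Ratio of the level in medullary bins to that in other bins outside the B areas for each member, by section, on a log axis with exact conditional 95% intervals (counting error only). In WT *Fcer2a* (10.5) and *Siglecg* (7.46) lie highest, in KO1134 *Lta* (4.97) does, and in KO1308 the members lie between 1.55 and 2.87.

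Patches rich in the B cell list, whose 5 × 5 window held at least 3 times the WT mean in at least 25 adjoining bins, were also found in WT. There were 16 of them with a median of 33 bins, 2.90% of the tissue, and 76.0% of their bins were medullary. Their number depended on the rule, with 41 at 2 times and 1 at 5 times the WT mean and 7 in 20 µm bins or at 500 genes per bin. They held 1 of 21 *Cxcl13* and 4 of 122 *Cr2* UMIs, while *Fcmr* (25 UMIs), *Siglecg* (13 UMIs) and *Fcer2a* (6 UMIs) were 6.34-fold, 6.32-fold and 5.72-fold above the other tissue and the B cell list was 4.56-fold. The B-rich bins of WT thus carried *Fcmr* and *Siglecg* without a measurable crowding of *Cxcl13* or *Cr2*. The 12 patches of KO1308 (3 to 29 under the alternatives) and the 11 of KO1134 (3 to 17) covered 33.2% and 34.5% of the tissue and held 91.5% and 80.2% of *Cxcl13* UMIs.

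The genes most like 3 of the members were sought over tiles of 270 µm, 202 in KO1308, 136 in KO1134 and 323 in WT, as the mean Spearman correlation over the sections, which share depth within a tile. For *Cxcl13* the 5 highest were *Ighd*, *Cd79a*, *A530040E14Rik*, *Lyz1* and *Smad7*, at 0.294 to 0.267. For *Cr2* they were *Cd52*, *Tmsb10*, *H2-Q7*, *Shisa5* and *Cd79a*, at 0.446 to 0.429. For *Ltb* they were *H2-Q7*, *H2-K1*, *Shisa5*, *Gimap4* and *Lrba*, at 0.776 to 0.740, and the *H2* genes share near-identical reads. *Ighd* and *Cd79a* are B cell receptor genes, and *H2-K1* and *H2-Q7* encode class I molecules.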

How the data were processed

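UMI counts per gene and spot, whole numbers without normalisation, were deposited by the authors, who aligned reads to GRCm38 with BSTMatrix and STAR. Tissue folds, which the study removed, were kept here, and the authors' annotation was not used. Spots were summed in 27 µm bins. Bins under 300 genes or above 30% mitochondrial UMIs were removed, and tissue was taken as connected groups of at least 200 bins. Spot names mark slide positions and recur between sections (244006 to 903622 shared per pair), so they do not mark shared cells.

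CPM was computed from sums over bins, with exact Poisson 95% intervals, and ratios with exact conditional binomial 95% intervals. Both cover counting error only. With 1 WT section there was no test. Shares of all genes past a threshold leave out genes that stayed under 100 UMIs in the sections compared, while members and list genes were counted at any number of UMIs. The 8 genes and every list were chosen with earlier results of these data known, and the definition of clumps and of the largest B area was made after the values were seen. Named genes were the members, genes of the lists, *Trp53* and the 5 genes most like *Cxcl13*, *Cr2* and *Ltb*. Alternatives changed bin width, filters, denominators and thresholds. Scripts were tested on simulated data and used Python 3.11.15, numpy 2.4.6, scipy 1.17.1 and pandas 2.3.3.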

Additional observations from a re-analysis of the deposited data

How the results depend on the processing

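With 1 WT section and counts of 21 to 6528 UMIs per member, depth limits *Cxcl13* in WT most, and differences between mice cannot be told apart from genotype. The median ratio of the 8 genes to WT over both KO sections was 4.24. It was 4.54 in 20 µm bins, 4.58 at 500 genes, 2.04 without the B areas and 1.13 per B cell UMI, and 3.65 to 4.08 with 1 KO section left out. Per B cell UMI, *Cxcr5* (0.988 against 3.60), *Lta* (0.583 against 2.11) and *Ltb* (0.386 against 1.41) turned below WT.

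The *Cxcl13*-*Cr2* pair ratio of KO1308 (26.1) became 22.4 in 50 µm bins, 22.5 at 200 genes, 24.4 at 500 genes, 32.4 in the same bin, 22.9 at 2 to 4 bins and 3.25 without the B areas. That of KO1134 (18.4) became 15.7 in 50 µm bins, 20.2 in the same bin, 10.7 at 2 to 4 bins and 0.743 without the B areas. That of WT (2.21) became 15.8 in the same bin and 0 at 2 to 4 bins. B-rich patches in KO1308 (12) numbered 29 in 50 µm bins, 24 at 200 genes, 20 at 2 times the WT mean and 3 at 3 times the section's own mean. In KO1134 (11) they numbered 17 without the B areas, 6 at 5 times the WT mean and 3 at the own mean, and in WT (16) 7 in 20 µm bins, 7 at 500 genes, 41 at 2 times and 1 at 5 times the WT mean. With the medulla set at 2 times the WT mean, the median medullary ratio was 6.12 against 2.46 in KO1308 and 4.12 against 2.52 in KO1134. That of KO1308 was 1.85 without *Ccl21a* in the medulla list and 1.73 at 3 times the section mean.

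Alternatives chosen after the data were seen concern clumps and surrounds. At 400 CPM each KO section had 1 clump, and at 100 CPM KO1134 had 4. The medullary share around the KO1308 area (36.7%) was 10.9% without *Ccl21a* and 19.4% for an area with more than 2 times as many B as thymus UMIs. That around the KO1134 area (0.132%) was 1.19% without *Ccl21a* and 0% within 54 µm. The cause of these shifts was not tested. No paired analysis was possible because the values come from no test and the groups share only 1 replicate number.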
